A study of Mus musculus with 4 samples.

Results

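The 10 genes described here belong to the YAP and TEAD pathway: the coactivator genes Yap1 and Wwtr1, the transcription factor genes Tead1 and Tead2, the inhibitor genes Lats2 and Amotl2, the LATS regulator gene Ajuba, and the target genes Ankrd1, Ccn1 and Ccn2. They were chosen by name, as the rows whose Ensembl identifier maps to these symbols, and make up 10 of the 38293 gene rows. Earlier results of these data were known when the genes were chosen. The mice were MMTV-Neu animals of the FVB strain that develop mammary tumours, and RNA was sequenced from 2 AXL KO (AXL-/-) tumours and 2 WT (AXL+/+) tumours. In both groups the Neu oncogene, the rat form of Erbb2, is driven by the mammary tumour virus promoter, which is active mainly in mammary epithelium. The labels do not give age, treatment or whether replicates came from separate animals, nor which cells lost AXL, so the p-values rest on the spread among 4 libraries, part of which may be technical.

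YAP (from Yap1) and TAZ (from Wwtr1) are coactivators that cannot bind DNA themselves. They enter the nucleus when the Hippo kinases are inactive and bind TEAD factors at target genes. LATS kinases phosphorylate both coactivators and keep them in the cytoplasm, while angiomotin-like proteins hold them at junctions and AJUBA family proteins restrain LATS. In the mammary gland the pathway is known for its part in responses to stiff matrix and in the growth of epithelial tumours. Axl is itself described in human cells as a target of YAP, so it was left out of the target list below.

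The DNA that TEAD factors read is short, so matches to it also occur by chance. Of the 10 genes, 8 had a promoter in the RefSeq table for GRCm38.p6, with 10 annotated starts. The 250 bases before each start were searched on both strands for CATTCC, the core of the TEAD motif, which reads GGAATG on the other strand. A match stood in 6 of these 8 genes, and in 3880 of 27025 genes with a promoter of that length (14.4%). By start it stood in 4153 of 32851 promoters (12.6%). A match describes these letters and is not a measured binding site. The 8 matches follow, as read 5′ to 3′ on the strand of the gene, with the core in capitals and 10 bases on either side, to let the sites be compared.
Yap1, chr9:8004722-8004747 (minus strand): ggagtctgcaGGAATGtagcgacgcg
Wwtr1, chr3:57576031-57576056 (minus strand): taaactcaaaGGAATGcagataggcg
Amotl2, chr9:102717729-102717754 (plus strand): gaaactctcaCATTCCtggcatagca
Ajuba, chr14:54577832-54577857 (minus strand): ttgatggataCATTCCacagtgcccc
Ajuba, chr14:54577810-54577835 (minus strand): cccctccgcgCATTCCaactgtaaac
Ankrd1, chr19:36120039-36120064 (minus strand): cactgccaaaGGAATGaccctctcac
Ankrd1, chr19:36119952-36119977 (minus strand): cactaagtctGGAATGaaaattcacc
Ccn1, chr3:145650073-145650098 (minus strand): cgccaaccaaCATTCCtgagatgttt
The core reads CATTCC in Amotl2, Ajuba and Ccn1 and GGAATG in Yap1, Wwtr1 and Ankrd1. Ajuba and Ankrd1 had 2 each. By the GENCODE M21 annotation 3 of the 8 matches, both of Ankrd1 and that of Amotl2, lie in an exon of the same gene, upstream of the RefSeq start used here. Tead2 and Lats2 had 0 in these windows. The CArG box, the motif of serum response factor, was found in 0 of the 8 genes. Counted by start, it stood in 1.47% of all promoters of that length, so a count of 0 in 8 genes is near that share. Tead1 and Ccn2 had no promoter entry and were not searched.

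The promoter of Ccn1 is given in full because this gene had the largest fitted difference of the 10, and that of Ajuba because its 2 cores lie close together, starting 186 and 164 bases before the start. The core of Ccn1 starts 103 bases before its start. Capitals again mark the core.
Ccn1, chr3:145649986-145650235 (GRCm38.p6, minus strand): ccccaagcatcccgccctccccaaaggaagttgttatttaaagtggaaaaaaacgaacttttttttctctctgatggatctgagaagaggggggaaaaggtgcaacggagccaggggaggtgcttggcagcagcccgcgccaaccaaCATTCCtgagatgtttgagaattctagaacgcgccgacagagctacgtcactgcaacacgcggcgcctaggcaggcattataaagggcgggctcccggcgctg
Ajuba, chr14:54577662-54577911 (GRCm38.p6, minus strand): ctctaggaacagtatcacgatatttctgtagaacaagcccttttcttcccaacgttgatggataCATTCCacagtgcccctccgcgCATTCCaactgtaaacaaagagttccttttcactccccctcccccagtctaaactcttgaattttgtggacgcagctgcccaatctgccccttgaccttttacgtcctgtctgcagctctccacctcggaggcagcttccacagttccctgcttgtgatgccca

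The gene counts summed to 19161051 and 33131739 in AXL KO replicates 1 and 2 and to 21276336 and 18929743 in WT replicates 1 and 2. Axl had 89 and 163 counts in the AXL KO libraries, against 1321 and 673 in the WT libraries. Its log2 difference was −3.33 ± 0.35 (SE), with an unadjusted p of 0.000184 and an adjusted p of 0.9997 by edgeR's quasi-likelihood test. Thus a 10.05-fold lower Axl did not pass by that test, and a gene that misses its threshold may still differ. DESeq2 gave Axl an adjusted p of 3.12e-13. WT replicate 2 stood apart from the other libraries, so values without it are given beside those of the 10 genes and of the named pathway genes that it moved most. Its 11 hypoxia genes deviated by 1.72 on average from their means on the log2 scale, while AXL KO replicates 1 and 2 were at −0.44 and −0.73 and WT replicate 1 at −0.54. Its leukocyte markers were at −0.87, beside −0.02 and 0.40 in AXL KO replicates 1 and 2 and 0.48 in WT replicate 1. The description of AXL KO replicate 2 has another prefix than those of the other 3 libraries, so values without that library are those within the shared prefix. Luminal epithelial markers summed to 3319 and 3065 CPM (read counts scaled to library size with edgeR's TMM factors) in AXL KO and to 3303 and 3890 CPM in WT. In WT replicate 2 the luminal markers Krt8 and Krt18 were the highest of all libraries, at 928 and 1366 CPM. Epcam and Cdh1 were the lowest there, at 966 and 341 CPM. Basal markers summed to 6.20 and 7.23 CPM in AXL KO and to 8.09 and 7.91 CPM in WT. Oxtr held 2.30 and 3.93 CPM of these sums in AXL KO and 5.24 and 4.56 CPM in WT. Of the tested basal genes Krt5 and Oxtr were lower in both AXL KO libraries than in both WT libraries, and Trp63 was higher.

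In AXL KO tumours the fitted log2 differences from WT were 0.13 for Yap1, −0.17 for Wwtr1 and 0.0016 for Tead2. Ccn1 was lower in each AXL KO library than in either WT library, while Ccn2 and Ankrd1 varied more between replicates than between genotypes. All 10 genes passed the filter on low counts. By edgeR's quasi-likelihood test 0 of the 10 had an adjusted p under 0.05, and so had 0 of all 14330 genes tested (0% called). Each of the 10 had an adjusted p of 0.9997. DESeq2 called 0 of the 10 and 17 genes in all, 0.12% of the 14201 to which it gave an adjusted p (of 20587 fitted), and limma-voom called 0 of each. Without WT replicate 1 edgeR called 1.51% of all genes and again 0 of the 10. At an unadjusted p under 0.05 there was 1 of the 10, Ccn1, against 2.19% of all tested genes. The fitted differences were negative for 8 and positive for 2, with a median of −0.27 on the log2 scale, against 50.3% negative and a median of −0.0019 over all tested genes. The AXL KO pair was wholly under the WT pair for 3 of the 10 (Ccn1, Amotl2 and Wwtr1), as for 14.5% of all tested genes. It was wholly over the WT pair for 1 (Yap1), as for 14.7%. AXL KO replicate 1 was the lowest library for 6 of the 10, and WT replicate 2 the highest for 5. The matching shares of all tested genes were not counted, so these 2 counts only describe the 10.

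**Figure D1:**
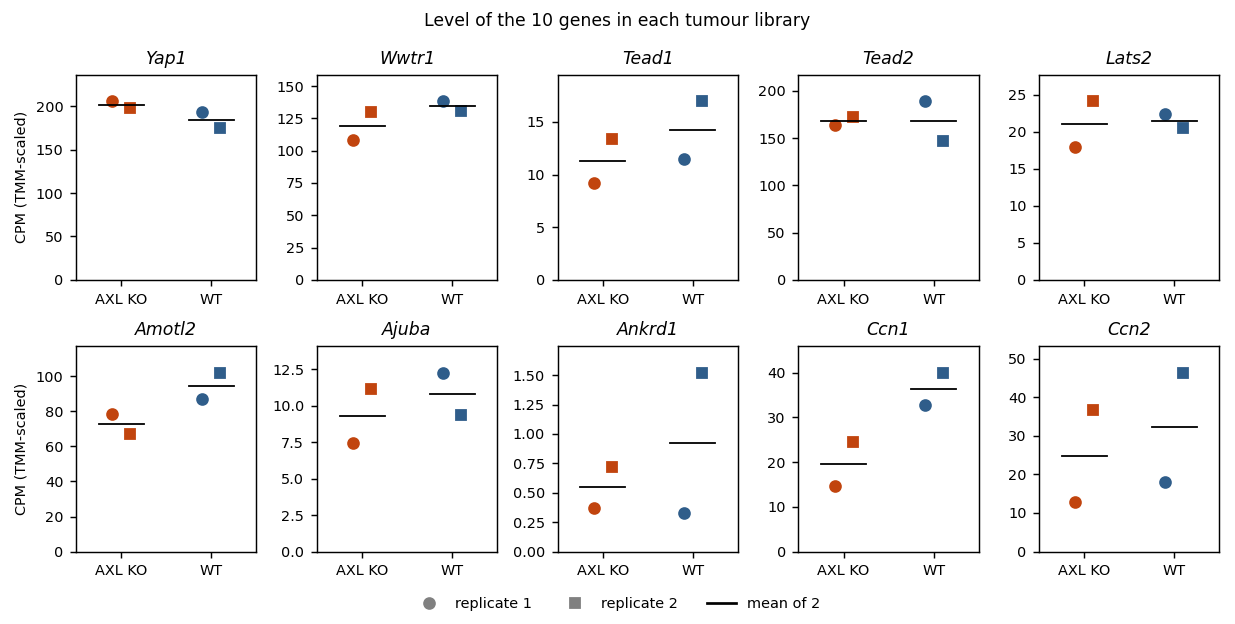
CPM of each of the 10 genes in the AXL KO libraries (left) and the WT libraries (right), with replicates 1 and 2 as circles and squares and the mean of 2 as a line; each axis starts at 0. The groups stand apart for Yap1, Wwtr1, Amotl2 and Ccn1, while replicate 2 lies well above replicate 1 in both groups for Ccn2.

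Yap1 (ENSMUSG00000053110, chromosome 9 from 7931999 to 8004596, minus strand, GRCm38) encodes YAP. It was at 205.8 and 198 CPM in AXL KO tumours, against 194 and 175 CPM in WT tumours. Both AXL KO values were above both WT values by a small margin, and the difference was 0.13 ± 0.17 (SE) on the log2 scale (95% interval −0.30 to 0.57), or 0.06 without WT replicate 2. Wwtr1 (ENSMUSG00000027803, chromosome 3 from 57455649 to 57575910, minus strand) encodes TAZ. It was at 108 and 129.9 CPM in AXL KO tumours, against 138 and 130.5 CPM in WT tumours. AXL KO replicate 2 and WT replicate 2 were almost equal, so the groups stood apart by less than 1 CPM. The difference was −0.17 ± 0.18 (SE; interval −0.63 to 0.28), −0.21 without WT replicate 2 and −0.05 without AXL KO replicate 1.

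Tead2 (ENSMUSG00000030796, chromosome 7 from 45215753 to 45233644, plus strand) encodes a TEAD factor first known from early embryos. It was at 164 and 172 CPM in AXL KO tumours, against 189 and 147 CPM in WT tumours. The AXL KO values lay between the WT values, and the log2 difference was 0.0016 ± 0.20 (SE; interval −0.50 to 0.50). It turned to −0.17 without WT replicate 2 and to −0.05 without AXL KO replicate 2, was 0.19 without WT replicate 1, and was also below 0 with DESeq2, with its size factors in edgeR and with library totals, by at most 0.02. The last exon of Tead2 overlaps that of Cd37 on the opposite strand, and Cd37 had 42 and 139 counts in AXL KO and 59 and 30 in WT beside 2812 to 5741 for Tead2. Tead1 (ENSMUSG00000055320, chromosome 7 from 112679318 to 112906807, plus strand) encodes a broadly expressed TEAD factor. It was at 9.19 and 13.4 CPM in AXL KO tumours, against 11.5 and 16.96 CPM in WT tumours. Replicate 2 was the higher in each group and the groups overlapped, with a log2 difference of −0.33 ± 0.34 (SE; interval −1.20 to 0.55). It shrank to −0.02 without WT replicate 2 and to −0.09 without AXL KO replicate 1, and was −0.58 without WT replicate 1 and −0.65 without AXL KO replicate 2.

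Per length of exon Tead2 was the most abundant of the TEAD genes in these tumours. On the scale of CPM per kilobase of annotated exon, it was at 34.3 and 35.96 in AXL KO and at 39.4 and 30.8 in WT. That was 82.5% and 82.95% of the summed level of Tead1 to Tead4 in the AXL KO libraries, against 81.4% and 77.5% in the WT libraries. Tead3 held 7.90% to 12.3% over the 4 libraries, Tead4 6.39% to 7.21% and Tead1 1.63% to 3.15%. The length counts exons of every annotated isoform, 13570 bases for Tead1 and 4788 for Tead2, so the share of Tead1 is a low estimate if the long exons are not used. Of the summed coactivator level Yap1 held 49.5% and 44.1% in the AXL KO libraries, against 41.99% and 40.9% in the WT libraries. The lengths were 9257 bases for Yap1 and 4779 for Wwtr1. The share of Yap1 is likewise a low estimate if its long exons are not used.

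**Figure D2:**
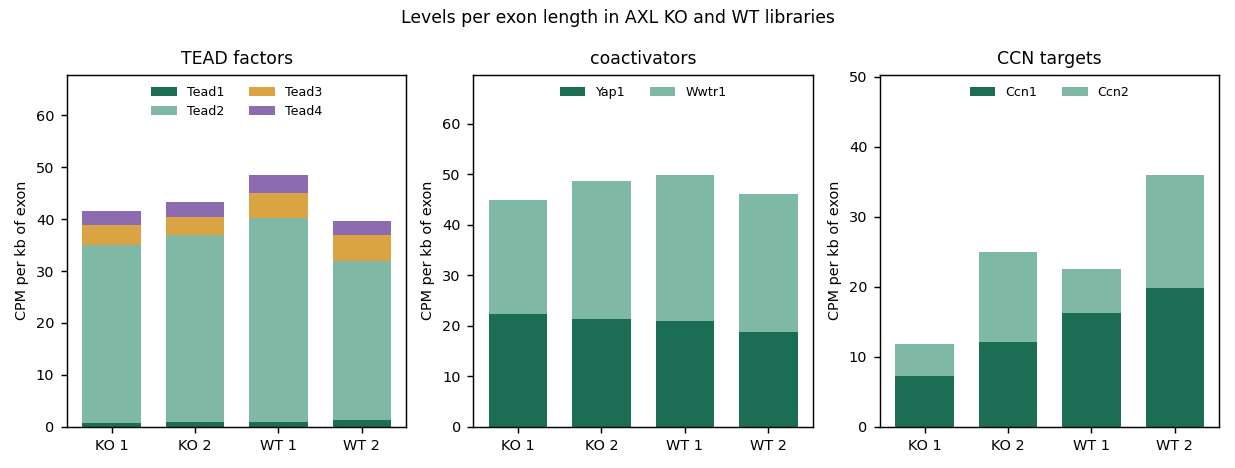
Stacked levels in CPM per kilobase of exon for the TEAD factors, the coactivators and the CCN targets, in AXL KO replicates 1 and 2 and then WT replicates 1 and 2. Tead2 fills 77.5% to 82.95% of the TEAD bars, and the CCN bars differ most between libraries.

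The order of the 10 genes on the same scale was stable at its ends. In every library Tead2 took the first place, Wwtr1 the second, Tead1 the ninth and Ankrd1 the last. This order rests on the exon lengths. In CPM, without them, Yap1 was above both Tead2 and Wwtr1 in every library. Its range was 175 to 205.8 CPM, against 147 to 189 CPM for Tead2 and 108 to 138 CPM for Wwtr1. The lowest Tead2 value (30.8 CPM per kilobase) was above the highest of Wwtr1 (28.9), and the lowest of Wwtr1 (22.7) above the highest of Yap1 (22.2). Yap1 took the third place in both AXL KO libraries and in WT replicate 1, and Ccn1 took that place in WT replicate 2, at 19.8 against 18.9. Ccn1, Amotl2 and Ccn2 changed places between libraries, and their ranges of 7.30 to 19.8, 10.6 to 16.2 and 4.48 to 16.2 overlapped. Lats2 and Ajuba were close, at 2.57 to 3.46 and 2.04 to 3.36. Ankrd1 reached 0.53 at most.

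Among the inhibitors and their regulators, Amotl2 (ENSMUSG00000032531, chromosome 9 from 102716672 to 102733418, plus strand) encodes an angiomotin-like junction protein that binds YAP and is also a YAP target. It was at 78.7 and 66.9 CPM in AXL KO tumours, against 87.0 and 102 CPM in WT tumours. Both AXL KO values were below both WT values. The log2 difference was −0.38 ± 0.19 (SE; interval −0.86 to 0.10; unadjusted p = 0.101 and adjusted p = 0.9997 by edgeR's quasi-likelihood test), and it ran from −0.50 to −0.26, the value without WT replicate 2, with each library left out in turn. Lats2 (ENSMUSG00000021959, chromosome 14 from 57689662 to 57758388, minus strand) encodes a kinase of YAP and TAZ whose own gene is a target of them. It was at 17.9 and 24.1 CPM in AXL KO tumours, against 22.4 and 20.5 CPM in WT tumours. The AXL KO libraries were the lowest and the highest of the 4, and the difference was −0.03 ± 0.25 (SE; interval −0.67 to 0.61). It turned to 0.16 without AXL KO replicate 1 and to 0.04 without WT replicate 1, and was −0.09 without WT replicate 2. Ajuba (ENSMUSG00000022178, chromosome 14 from 54567472 to 54577558, minus strand) encodes a LIM protein that binds LATS kinases and lowers their activity, so it restrains an inhibitor. It was at 7.42 and 11.1 CPM in AXL KO tumours, against 12.3 and 9.37 CPM in WT tumours. The groups overlapped, with a log2 difference of −0.22 ± 0.34 (SE; interval −1.08 to 0.65). It turned to 0.04 without AXL KO replicate 1 and was −0.39 without WT replicate 2.

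Ccn1, formerly Cyr61 (ENSMUSG00000028195, chromosome 3 from 145646976 to 145649981, minus strand), encodes a secreted matricellular protein that binds integrins. It was at 14.7 and 24.5 CPM in AXL KO tumours, from 276 and 817 counts, against 32.8 and 39.9 CPM in the WT libraries, from 701 and 762 counts. Both AXL KO libraries were below both WT libraries, AXL KO replicate 1 by far the lowest. The mean was 19.6 ± 6.90 CPM in AXL KO and 36.3 ± 5.03 CPM in WT (SD, n = 2 each), 1.85-fold lower in AXL KO by the fit. The log2 difference was −0.89 ± 0.31 (SE; interval −1.68 to −0.09), with an unadjusted p of 0.0346 and an adjusted p of 0.9997 by edgeR's quasi-likelihood test, so it did not pass. It stayed negative with each library left out in turn, from −1.32 without AXL KO replicate 2 to −0.57 without AXL KO replicate 1. Without AXL KO replicate 1 the unadjusted p was 0.185, and without WT replicate 2 it was 0.0947 at a log2 difference of −0.74.

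Ccn2, formerly Ctgf (ENSMUSG00000019997, chromosome 10 from 24595442 to 24598683, plus strand), encodes a matricellular protein of the same family that is abundant in fibrotic tissue. It was at 12.8 and 36.7 CPM in AXL KO tumours, from 240 and 1223 counts, against 18.1 and 46.3 CPM in the WT libraries, from 387 and 884 counts. Replicate 2 was the higher in both groups, 2.86-fold in AXL KO and 2.56-fold in WT, and the groups overlapped. The log2 difference was −0.38 ± 0.65 (SE; interval −2.02 to 1.27). It turned to 0.46 without WT replicate 2 and to 0.19 without AXL KO replicate 1, and was −1.34 within the shared prefix. Ankrd1 (ENSMUSG00000024803, chromosome 19 from 36111961 to 36120099, minus strand), which encodes a muscle ankyrin repeat protein, had few reads. There were 7 and 24 counts in the AXL KO libraries, or 0.37 and 0.72 CPM, against 7 and 29 counts in the WT libraries, or 0.33 and 1.52 CPM. Only replicate 2 of each group reached 10 counts. The single high library was WT replicate 2, and the log2 difference of −0.68 ± 0.85 (SE; interval −2.84 to 1.49) turned to 0.81 without it. Skeletal muscle markers summed to 2.24 and 1.41 CPM in AXL KO and to 1.54 and 1.89 CPM in WT, with Myh4 and Tnnt3 at 0 counts in all 4 libraries.

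**Figure D3:**
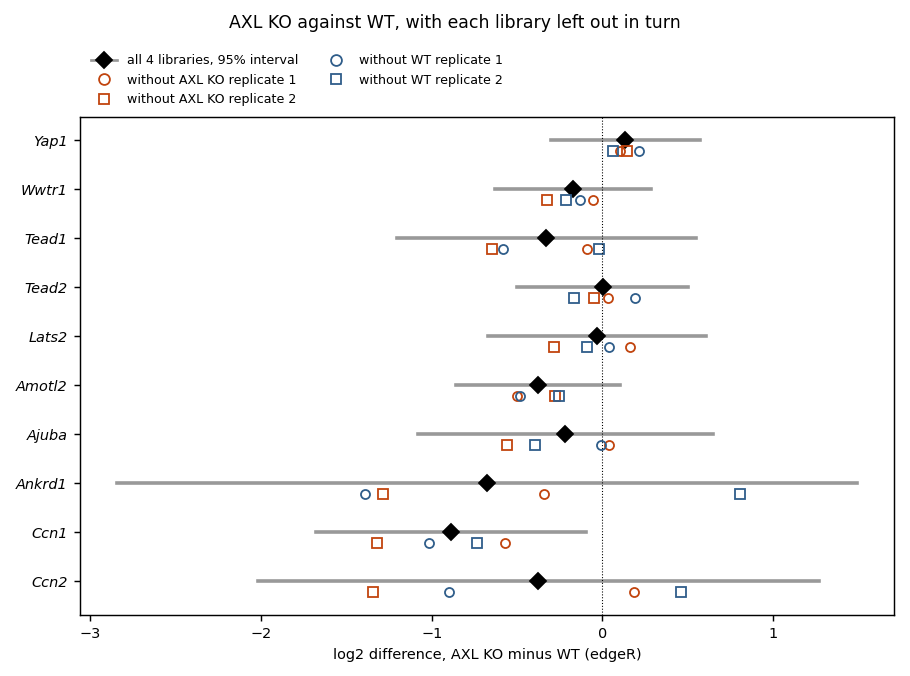
Log2 difference of each gene, AXL KO minus WT, from all 4 libraries (black diamond, with its 95% interval as a grey bar) and with each library left out (open symbols). The open symbols lie on both sides of 0 for Tead2, Lats2, Ajuba, Ankrd1 and Ccn2. They lie below 0 for Ccn1, Amotl2, Wwtr1 and Tead1, and above 0 for Yap1.

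AXL KO replicate 1, the library with the least Ccn1 and Ccn2, was the lowest for the mean of 3 lists of stromal markers. The other libraries did not keep 1 order. Adipocyte markers were lowest in WT replicate 1 (mean deviation −0.50), with AXL KO replicate 1 at −0.20. Leukocyte markers were lowest in WT replicate 2 (−0.87), with AXL KO replicate 1 at −0.02. The 7 fibroblast markers summed to 306 and 1007 CPM in AXL KO tumours and to 733 and 1102 CPM in the WT libraries, with 0 of 7 at 0. AXL KO replicate 1 was the lowest for fibroblast markers, which deviated by −0.94 on average, for pericyte and smooth muscle markers (−0.58), for endothelial markers (−0.41) and for Ccn1 (−0.83) and Ccn2 (−0.96). WT replicate 2 was the highest for Ccn1 (0.60), Ccn2 (0.88), pericyte and smooth muscle markers (0.58) and, next to AXL KO replicate 2 (0.48), fibroblast markers (0.50). Endothelial markers were highest in AXL KO replicate 2 (0.41), with WT replicate 1 at 0.0026 and WT replicate 2 at −0.0014. Fibroblast markers had the signs of Ccn2 in all 4 libraries. The same signs were seen in pericyte and smooth muscle markers, adipocyte markers and targets of serum response factor. Fibroblast markers were above their mean in AXL KO replicate 2 and below it in WT replicate 1 (−0.04). In these 2 libraries Ccn1 was at −0.10 and 0.32. Of the 7 fibroblast markers, 6 were lowest in AXL KO replicate 1 and 5 highest in WT replicate 2, whereas Pdgfra was lowest in WT replicate 2, at 17.3 and 19.6 CPM in AXL KO and at 21.2 and 13.2 CPM in WT. The 7 pericyte and smooth muscle markers summed to 80.9 and 124 CPM in AXL KO and to 89.4 and 162 CPM in WT. Targets of serum response factor, which is also known to act on Ccn1 and Ccn2, had mean deviations of −0.51 and 0.13 in AXL KO and −0.09 and 0.47 in WT. Immediate early genes had −0.41 and −0.17 in AXL KO and −0.08 and 0.66 in WT. The part of stromal content, serum response or the hypoxia genes of WT replicate 2 in the values of Ccn1 and Ccn2 was not tested. In bulk tumours fewer cells of a type and less RNA per cell cannot be told apart.

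**Figure D4:**
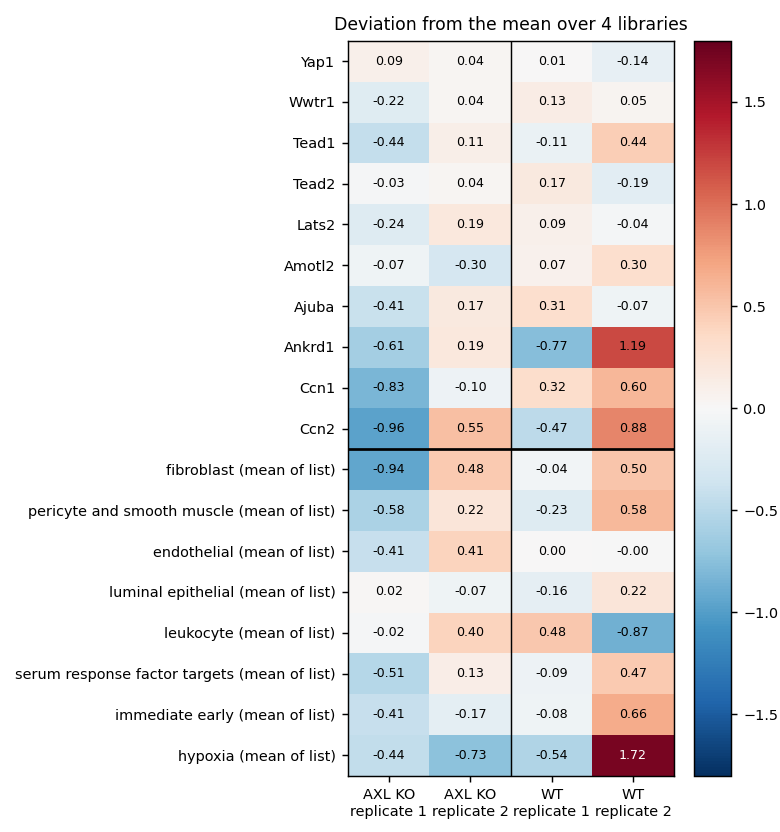
Deviation of log2 CPM from the mean of the 4 libraries, for each of the 10 genes (above the black line) and as the mean of 8 marker and response lists (below it), with AXL KO libraries left of WT libraries. Ccn2 shares its signs and its lowest library with the fibroblast list, the pericyte and smooth muscle list and the serum response factor targets. The hypoxia list is high in WT replicate 2 alone, at 1.72.

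The genes whose profile over the 4 libraries lay closest to Ccn2 were Batf3, Bok, Pcolce, Prelp and Col8a1. Closeness was the root mean square difference of mean-centred log2 CPM, which ran from 0.0549 for Batf3 to 0.0946 for Col8a1, with a median of 0.776 over the 12452 genes compared. Batf3 was at 0.53 and 1.56 CPM in AXL KO and at 0.70 and 2.04 CPM in WT. Bok was at 0.91 and 2.61 CPM in AXL KO and at 1.45 and 3.46 CPM in WT. Pcolce was at 4.22 and 11.01 CPM in AXL KO and at 5.56 and 13.2 CPM in WT. Prelp was at 7.26 and 21.6 CPM in AXL KO and at 11.5 and 24.7 CPM in WT. Col8a1 was at 10.95 and 27.4 CPM in AXL KO and at 13.1 and 33.98 CPM in WT. Closest to Ccn1 were the chemokine gene Cx3cl1 (0.0254), Plch1, Trp53i11, Lypd3 and Plxnb3 (0.0954), with a median of 0.577 over the same genes. Cx3cl1 was at 23.2 and 39.9 CPM in AXL KO and at 50.8 and 62.7 CPM in WT. With 4 libraries many genes share a profile, so these are descriptions with no test. Among the 10 genes, Lats2 and Wwtr1 were the closest pair (0.0900), followed by Tead2 and Yap1 (0.105), while Ankrd1 and Tead2 were the farthest apart (0.886).

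The rest of the pathway was read from 4 lists with 43 genes beside the 10, of which 39 were tested. Of these 39, 19 had a positive and 20 a negative log2 difference, with a median of −0.05. Over all tested genes 50.3% were negative, with a median of −0.0019. By edgeR's quasi-likelihood test 0 of the 39 passed, beside 0% of all tested genes. At an unadjusted p under 0.05 there was 1 of the 39 (Map4k4), against 2.19% of all tested genes. DESeq2 and limma-voom called 0 of the listed genes, against 0.12% and 0% of all genes with an adjusted p. The AXL KO pair was wholly over the WT pair for 3 of the 39 and wholly under it for 9, beside 14.7% and 14.5% of all tested genes.

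In the core kinase module 6 of 10 tested genes were positive (median 0.12). Map4k4, which encodes a kinase that can phosphorylate LATS, was at 106 and 119 CPM in AXL KO and at 158 and 202 CPM in WT. Its log2 difference was −0.68 ± 0.20 (SE), with an unadjusted p of 0.0190 and an adjusted p of 0.9997 by edgeR's quasi-likelihood test, and it was −0.49 without WT replicate 2. The genes of the Hippo kinases MST1 and MST2, Stk4 and Stk3, had −0.22 and −0.22, and the LATS activator gene Mob1b had 0.19. Without WT replicate 2 these were −0.05, −0.05 and 0.01. Among the upstream scaffolds and inhibitors 8 of 12 were positive (median 0.04). Fat4, a giant cadherin gene, was at 2.03 and 3.42 CPM in AXL KO and at 1.403 and 1.31 CPM in WT, a log2 difference of 1.02 ± 0.46 (SE). Amot, Fat1 and Wwc2 had 0.35, 0.35 and 0.28, and 0.14, 0.17 and −0.03 without WT replicate 2.

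Of the transcription factors and cofactors 4 of 4 tested genes were negative (median −0.29). Tead3 was at 26.6 and 23.0 CPM in AXL KO and at 31.5 and 32.7 CPM in WT, a log2 difference of −0.37 ± 0.20 (SE). Vgll4, which encodes a cofactor that competes with YAP for TEAD, was at 66.98 and 86.9 CPM in AXL KO and at 90.3 and 107 CPM in WT (−0.36 ± 0.21, SE). Tead4 and Vgll3 had −0.16 and −0.23, and −0.31 and 0.29 without WT replicate 2. Tead4 turned to 0.01 without WT replicate 1, and Vgll3 to 0.34 without AXL KO replicate 1. Vgll1 and Vgll2 had 0 counts in every library, which allows up to 0.0905 to 0.158 CPM at 3 counts per library.

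The target list, a published set of YAP and TAZ targets from human tumours, gave 5 positive and 9 negative differences in its 14 tested genes beside the 10 (median −0.12). Nuak2, which encodes an AMPK-related kinase, was at 3.85 and 5.10 CPM in AXL KO and at 6.22 and 10.3 CPM in WT (−0.87 ± 0.39, SE). Arhgef17 was at 7.69 and 13.3 CPM in AXL KO and at 13.3 and 34.1 CPM in WT (−1.17 ± 0.53, SE), so AXL KO replicate 2 and WT replicate 1 were level. Without WT replicate 2 the log2 differences of Nuak2 and Arhgef17 were −0.47 and −0.34. F3, the tissue factor gene, and the growth arrest gene Gadd45a had 0.38 and 0.31, and 0.04 and 0.06 without WT replicate 2. The AXL KO pair was wholly under the WT pair for Nuak2, Arhgef17 and Ptpn14, 3 of the 14, beside 14.5% of all tested genes. It was wholly over the WT pair for 0 of the 14, beside 14.7%. The log2 difference of Ptpn14 was only −0.09. None of the 14 passed.

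**Figure D5:**
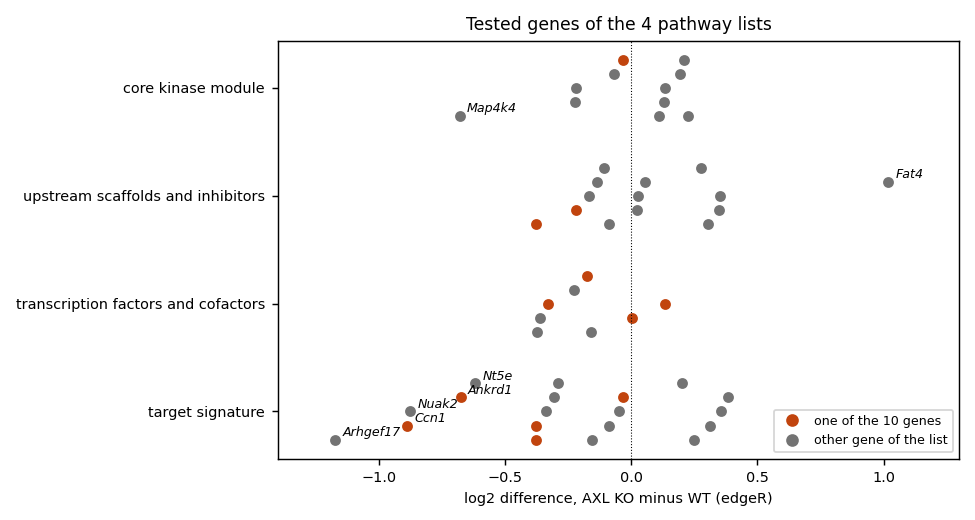
Log2 difference, AXL KO minus WT, of the tested genes of the 4 pathway lists, with the 10 genes described above in orange and the others in grey; vertical offsets only separate points. Most points lie within 0.4 of 0, and genes beyond 0.6 are named.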

How the data were processed

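The authors deposited 1 whole-number read count per gene for each of the 4 tumour libraries. Build GRCm38 is named in the submitters' processing notes, as are HTSeq 0.5.3, TopHat2 2.0.10, DESeq2 1.4.5 and CASAVA 1.8, without their roles. The sources used here give no annotation release and no strand setting, so reads of genes that overlap on opposite strands cannot be told apart. The 5 summary lines that name no gene were left out; of all lines summed, reads outside genes took 5.28% to 8.11%, ambiguous reads 0.635% to 1.85% and alignments that were not unique 23.2% to 28.1%. Of 38293 identifiers, 36345 matched GENCODE M21.

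Groups and replicate numbers came from the titles. Counts were filtered with filterByExpr (14330 genes kept), scaled with TMM and tested by edgeR 4.0.16 (glmQLFit with legacy=FALSE, glmQLFTest; R 4.3.3), Benjamini-Hochberg adjusted over every tested gene at 0.05 and no covariate. SE was taken from the F statistic. The biological coefficient of variation was 0.31. The test was checked on simulated counts. Log2 CPM used a prior count of 2. Intervals and floors cover counting error or the spread of 2 libraries a group only. Exon lengths are unions of M21 exons. Promoter sequences are from RefSeq.

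Alternatives were DESeq2 1.42.0, limma-voom (limma 3.58.1), DESeq2 size factors, library totals, 2 other filters, the replicate number as a block, and each library left out. The members and lists were chosen with earlier results of these data known. Named were the 10 genes, Axl and up to 4 genes of smallest p in each pathway list. The 5 closest profiles to Ccn2 and Ccn1 with a mean CPM of at least 1 were also named. Ptpn14, Cd37, Vgll1, Vgll2, Myh4, Tnnt3, Pdgfra and the neighbours of Yap1 were named after their values were seen. The same holds for Krt8, Krt18, Epcam, Cdh1, Krt5, Trp63 and Oxtr.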

Additional observations from a re-analysis of the deposited data

How the results depend on the processing

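With 2 libraries a group, each interval above is wide, and a difference that missed the threshold is not shown to be absent. Under the 11 alternative settings 0 of the 10 genes and 0 of the 39 to 41 other pathway genes passed. Over all genes edgeR called 0, DESeq2 called 17, and leaving out 1 library gave 0 to 216, the 216 without WT replicate 1. DESeq2 here took every gene with a count, and the fits with a library left out kept the 14330 genes. Both choices were made after the data were seen. DESeq2 on the filtered genes and the fits with the filter redone were not planned and were also added after that. DESeq2 on the filtered genes called 16, and redoing the filter with 1 library left out gave 0 to 246 calls, again the highest without WT replicate 1, with 0 of the 10 genes called in each. Across the 11 alternative settings 98 fits of a single gene kept the direction and 11 reversed it; the causes were not tested. Tead2 turned to −0.00624 with DESeq2, −0.00185 with DESeq2 size factors and −0.0197 with library totals. With 1 library left out the log2 differences ran from −0.167 to 0.192 for Tead2, −0.281 to 0.161 for Lats2, −0.56 to 0.0355 for Ajuba, −1.39 to 0.806 for Ankrd1, −1.34 to 0.458 for Ccn2, −1.32 to −0.573 for Ccn1, −0.501 to −0.257 for Amotl2, −0.328 to −0.0538 for Wwtr1, −0.647 to −0.0206 for Tead1 and 0.0614 to 0.212 for Yap1. Ankrd1 had no value with a CPM of at least 1 in 2 libraries, which removed it. No scaling moved the median of all genes by over 0.1. Replicates share only a number: same-numbered deviations had a correlation of −0.045 across genes. With the replicate block edgeR called 0 genes, 571 at an unadjusted p under 0.05 against 314, and 0 of the 10.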

Other observations

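The neighbours of Yap1 were read because this region of chromosome 9 is known to be amplified in some mouse tumours, a choice made after the values of Yap1 were seen. Of the protein-coding genes within 500 kb of Yap1, 6 were tested. Birc2, which encodes an inhibitor of apoptosis, was at 53.1 and 40.1 CPM in AXL KO and at 41.05 and 47.7 CPM in WT, and its relative Birc3 at 19.98 and 17.5 CPM in AXL KO and at 19.5 and 8.69 CPM in WT. Tmem123 was at 336 and 289 CPM in AXL KO and at 302.5 and 222 CPM in WT. Cfap300 was at 8.97 and 8.97 CPM in AXL KO and at 8.46 and 9.22 CPM in WT. The log2 differences of the 6 genes ran from −0.56 for Mmp3 to 0.41 for Birc3, with the smallest unadjusted p at 0.257 for Cep126 by edgeR. Counts per gene do not measure copy number.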
